A study of Mus musculus with 6 samples.

Results

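The Hox genes and the Cdx genes of the mouse were described in day 3 embryoid bodies, floating aggregates of differentiating embryonic stem (ES) cells. Members were all probes whose gene symbol in the deposited annotation was that of a gene of the Hoxa, Hoxb, Hoxc or Hoxd cluster, or Cdx1, Cdx2 or Cdx4. They were 42 genes, 39 Hox and 3 Cdx, of the 34596 distinct symbols in that annotation. They had 56 of the 46632 probes, 53 for Hox and 3 for Cdx genes. Of the 42 genes, 30 had 1 probe, 10 had 2 and 2 had 3. Total RNA was measured on 6 Illumina bead arrays. The 3 arrays KO 1, KO 2 and KO 3 carried RNA labelled as endoglin knockout ES cells, and the 3 arrays WT 1, WT 2 and WT 3 carried RNA labelled as wild type E14 control ES cells, all at day 3 of differentiation. The strain is given as C57BL/6 for all 6. The labels name no further treatment, and do not say how many knockout clones were used, where in the gene the deletion lies, or whether replicates came from separate cultures. The p-values therefore cover the spread among the 6 arrays alone, which may be technical. The question was which genes differ when endoglin is lost.

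Hox genes encode homeodomain transcription factors that give cells their position along the head-to-tail axis. Within each cluster, genes with low paralogue numbers are switched on first and act towards the head, and genes with high numbers follow later and act towards the tail. Cdx proteins are related homeodomain factors, induced by Wnt and FGF signals in the primitive streak, that bind Hox clusters and help to activate their trunk genes. In ES cells the Hox clusters are held silent by Polycomb complexes, and early embryoid bodies form streak-like mesoderm in which the first of them come on. In bulk RNA, fewer cells of a type and less RNA per cell cannot be told apart.

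Promoters were read from RefSeq (build GRCm38.p6), whose table held 26 promoters of 300 bases for 24 of the 42 genes. They are shown 5′ to 3′ for 3 genes whose probes were higher on the arrays at slide positions A to C than at D to F, and for Hoxb8, which was not above background on any array. Of the 3, Hoxd9 was above background only on the arrays at A to C, so it had to show this order. Capitals mark matches, on either strand, to TTTATNG (a motif of Cdx proteins), TGATNNAT (of Hox proteins with their Pbx partners), or GATGGATG, a repeat searched after the Hoxb1 sequence had been seen.
Cdx2 promoter, chr5:147307200-147307499, minus strand: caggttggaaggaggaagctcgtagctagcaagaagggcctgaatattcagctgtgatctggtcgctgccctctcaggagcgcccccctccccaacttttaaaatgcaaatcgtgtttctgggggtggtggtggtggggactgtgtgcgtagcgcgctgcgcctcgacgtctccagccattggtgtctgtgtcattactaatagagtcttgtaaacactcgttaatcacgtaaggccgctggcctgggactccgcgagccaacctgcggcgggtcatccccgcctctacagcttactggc
Hoxb1 promoter, chr11:96365508-96365807, plus strand: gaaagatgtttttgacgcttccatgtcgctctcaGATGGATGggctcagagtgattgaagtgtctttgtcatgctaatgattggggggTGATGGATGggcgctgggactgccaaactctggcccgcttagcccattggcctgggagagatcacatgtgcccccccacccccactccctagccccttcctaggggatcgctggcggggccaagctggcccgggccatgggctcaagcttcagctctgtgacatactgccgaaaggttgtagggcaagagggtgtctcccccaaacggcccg
Hoxd9 promoter, chr2:74697513-74697812, plus strand: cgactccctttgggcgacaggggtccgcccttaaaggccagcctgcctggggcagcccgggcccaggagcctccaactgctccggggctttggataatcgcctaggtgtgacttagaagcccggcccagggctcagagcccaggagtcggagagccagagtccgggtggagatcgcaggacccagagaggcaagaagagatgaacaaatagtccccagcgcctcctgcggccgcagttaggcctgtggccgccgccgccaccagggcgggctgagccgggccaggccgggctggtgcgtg
Hoxb8 promoter, chr11:96281655-96281954, plus strand: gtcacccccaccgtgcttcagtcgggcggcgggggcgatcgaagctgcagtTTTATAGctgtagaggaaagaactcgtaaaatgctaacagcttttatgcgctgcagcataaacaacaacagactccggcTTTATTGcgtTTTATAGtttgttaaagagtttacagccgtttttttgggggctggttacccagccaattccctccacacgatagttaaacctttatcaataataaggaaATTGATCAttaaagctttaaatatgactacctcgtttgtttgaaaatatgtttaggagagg
The Hoxb1 promoter holds GATGGATG at 2 places, and the match to TGATNNAT overlaps the one nearer to the start. Hoxb1 protein is known to bind this kind of repeat with Pbx and so to maintain its own gene in the hindbrain. GATGGATG was found in 1 of the 26 member promoters and in 1.0% of all 32851 promoters in the table. TGATNNAT was found in 4 of the 26 and in 8.85% of all. TTTATNG was found in 2 of the 26, those of Hoxb8 and Hoxd4, with 3 matches each, and in 10.91% of all. AGGTCA, a half-site of nuclear receptors, was found in 7 of the 26 and 16.26% of all, and CTTTGAT or CTTTGTT, sites of TCF and LEF factors, in 2 of the 26 and 9.33% of all, neither of them marked.

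Arrays stood apart from their labels, and this bears on every comparison below. Eng, the targeted gene, encodes a co-receptor for TGF-beta family ligands. Its brighter probe measured 73.5, 45.4 and 48.7 on KO 1, KO 2 and KO 3, against 87.0, 90.6 and 44.4 on WT 1, WT 2 and WT 3. KO 1 therefore lay nearer to WT 1 and WT 2, and WT 3 lay at the level of KO 2 and KO 3. That level is near background, as KO 2 and WT 3 were below the background limit of 46.3 to 46.4 defined below, and KO 3 was little above it. The labels do not place the probe relative to the deletion, which limits this check. By their slide letters, KO 1, WT 1 and WT 2 were at positions B, A and C and KO 2, KO 3 and WT 3 at D, F and E, so the same division also follows slide position. Directions below follow the labels as deposited. Intensities are the authors' values in arbitrary units on a linear scale, and the levels of different probes cannot be compared with each other.

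Few Hox genes were above background at day 3. A probe was counted when it exceeded the background limit (46.3 to 46.4 on the different arrays, the 95th percentile of the estimated background) on at least 3 of the 6 arrays. This held for 17 of the 56 probes, or 30.4%, compared with 47.7% of all probes. All 6 arrays were above the limit for 12 member probes, or 21.4%, compared with 38.3% of all probes. By gene, 15 of the 42 had such a probe. Another 10 exceeded the limit on 1 or 2 arrays at most, and 17 on none. Since the limit is a 95th percentile, single crossings also occur among probes with no signal.

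The Hoxb cluster had the most genes above background. Of its 10 genes, 6 were above background on at least 3 arrays, namely Hoxb1, Hoxb2, Hoxb3, Hoxb4, Hoxb5 and Hoxb7. In the Hoxa cluster this held for 2 of 11 genes, among them Hoxa7, in the Hoxc cluster for Hoxc4, Hoxc6 and Hoxc8, 3 of 9, and in the Hoxd cluster for Hoxd9 and Hoxd11, 2 of 9. Cdx1 and Cdx2 were above the limit on all 6 arrays. Arranged by paralogue number, 6 of 12 genes in groups 1 to 4 were above background on at least 3 arrays, 5 of 11 in groups 5 to 8, and 2 of 16 in groups 9 to 13. A gene was counted by any of its probes. By probe, the Hoxb cluster had 7 of 13 above background, and the paralogue groups 47.1%, 33.3% and 9.52%, beside 47.7% of all probes. The Hoxb cluster and groups 1 to 4 thus lay near the share of all probes. The number of member probes above the limit was 20, 17 and 20 on KO 1, KO 2 and KO 3, against 17, 19 and 17 on WT 1, WT 2 and WT 3. The arrays of both labels thus had similar numbers, and their ranges overlapped.

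**Figure D1:**
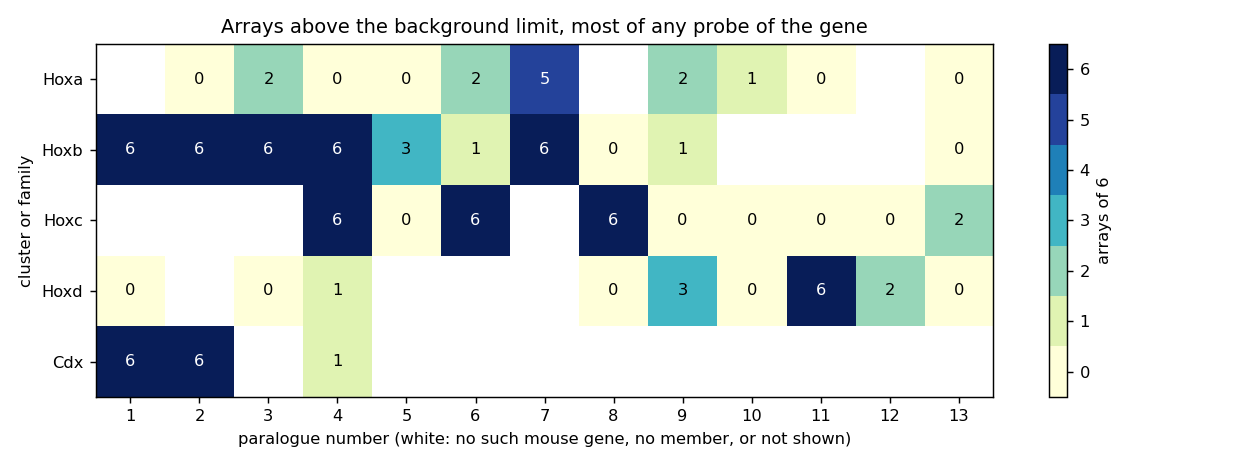
Number of arrays, of 6, on which a gene's probe lay above the background limit, by cluster or family (vertical axis) and paralogue number (horizontal axis), taking the probe with the most such arrays. Hoxb1 to Hoxb4 stand at 6, while most genes numbered 9 to 13 stand between 0 and 2, with Hoxd9 at 3 and Hoxd11 at 6.

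Cdx2 and Hoxb2 varied most among the arrays. Cdx2, which specifies trophectoderm in the blastocyst and later drives elongation of the body axis, measured 281, 160 and 172 on KO 1, KO 2 and KO 3, against 316, 361 and 137 on WT 1, WT 2 and WT 3. KO 1, WT 1 and WT 2 were high and the other three were low, so the labels overlapped and the highest array was 2.64 times the lowest. Its log2 difference between labels, on the background-corrected scale used for all tests here, was -0.31 (SE 0.33, 95% interval -1.07 to 0.44, limma adjusted p = 1.00). A two-sided exact permutation test over the 20 groupings of the 6 arrays gave p = 0.6, where 0.1 is the smallest that 3 against 3 allows. At slide positions A to C, KO 1 was 0.25 below the mean of WT 1 and WT 2 on the log2 scale (difference -0.25), while at D to F the mean of KO 2 and KO 3 was 0.24 above WT 3. The difference between labels was therefore of opposite sign at the 2 sets of positions, and with position as a block it was -0.0044 (SE 0.10).

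Cdx1, which acts on vertebral identity and in the intestine, did not share that pattern. It measured 70.8, 59.9 and 67.2 on KO 1, KO 2 and KO 3, and 58.1, 75.6 and 54.1 on WT 1, WT 2 and WT 3. The KO values lay inside the range of the WT values, and WT 1 was at the lower end although Cdx2 was high there. The log2 difference of Cdx1 was 0.06 (SE 0.10, limma adjusted p = 1.00). Cdx4, which acts with the other Cdx factors in axis elongation and blood formation, was above the limit on KO 1 alone, at 48.1, and lay between 37.1 and 43.0 on the other arrays.

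Hoxb2, a hindbrain gene that Hoxb1 protein is known to activate there, measured 203, 69.9 and 103 on KO 1, KO 2 and KO 3, against 244, 233 and 64.5 on WT 1, WT 2 and WT 3. Its highest array was 3.79 times its lowest. As for Cdx2, KO 1, WT 1 and WT 2 were high and the labels overlapped, and KO 3 lay between these and KO 2 and WT 3. The log2 difference was -0.39 (SE 0.46, 95% interval -1.46 to 0.67, limma adjusted p = 1.00). At positions A to C it was -0.21 and at D to F 0.31, and with position as a block it was 0.05 (SE 0.13). Only Cdx2 and Hoxb2, 2 of the 17 member probes above background, had a highest array at least 1.5 times the lowest, a share close to the 10.2% among all kept probes.

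Hoxb1, the first Hoxb gene to come on in the streak and the factor that defines a hindbrain segment, was above the limit on all 6 arrays with a narrower range. It measured 127, 115 and 117 on KO 1, KO 2 and KO 3, against 136, 164 and 119 on WT 1, WT 2 and WT 3. The 3 lowest arrays were KO 2, KO 3 and WT 3, and KO 1 lay between them and WT 1 and WT 2. The log2 mean was 7.15 ± 0.06 under the KO label and 7.34 ± 0.20 under the WT label (SD, n = 3 each), a difference of -0.18 (SE 0.10, 95% interval -0.42 to 0.05, limma adjusted p = 1.00). Without WT 2 it was -0.079. The exact two-sided permutation p was 0.2. The difference was -0.21 at positions A to C and -0.03 at D to F.

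Hoxb3 and Hoxb4, which act in the hindbrain and neck and overlap in the genome, varied little. One Hoxb3 probe was above the limit on all 6 arrays, at 61.0, 60.4 and 66.0 on KO 1, KO 2 and KO 3, and 66.3, 62.1 and 62.9 on WT 1, WT 2 and WT 3. The other Hoxb3 probe lay around the limit, between 40.8 and 53.0, and exceeded it on 4 arrays. Hoxb4, which expands blood stem cells when overexpressed, measured 86.5, 76.7 and 87.1 on the KO arrays, and 87.3, 81.6 and 73.7 on the WT arrays. The labels overlapped throughout for these 3 probes, and no array stood out. Their log2 differences were -0.02 (SE 0.06), -0.04 (SE 0.08) and 0.04 (SE 0.08).

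Paralogue group 4 of the Hoxc cluster was also above background. The brighter Hoxc4 probe measured 56.6, 56.8 and 56.1 on KO 1, KO 2 and KO 3, and 53.9, 66.8 and 53.7 on WT 1, WT 2 and WT 3, and its other probe 50.7, 44.5 and 51.3 against 45.1, 60.3 and 52.5. Both probes were highest on WT 2. By contrast, Hoxa2, Hoxa4, Hoxd1 and Hoxd3, of the same anterior groups, had no probe above the limit on any array. Hoxa3 exceeded it on WT 2 and WT 3, at 48.0 and 47.7, and Hoxd4 on WT 1, at 48.8.

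Among the trunk genes of groups 5 to 8, Hoxb5 was a member with the Cdx2 and Hoxb2 order of arrays. Hoxb5, a regulator of vagal neural crest, measured 54.2, 45.6 and 42.2 on KO 1, KO 2 and KO 3, against 58.8, 55.4 and 46.1 on WT 1, WT 2 and WT 3. It was above the limit only on KO 1, WT 1 and WT 2, so it passed the filter through these arrays and had to show this order. The log2 difference was -0.12 (SE 0.09, limma adjusted p = 1.00). The brighter Hoxb7 probe stayed between 66.6 and 73.1 on all 6 arrays, while the other exceeded the limit on 2.

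Hoxc6 and Hoxc8, which pattern thoracic vertebrae and forelimb-level motor neurons, were each above background by 1 of their 2 probes. Hoxc6 measured 55.0, 52.5 and 55.6 on the KO arrays, and 67.4, 55.3 and 57.5 on the WT arrays, with WT 1 alone set apart. Hoxc8 measured 66.1, 57.9 and 53.7 on the KO arrays, and 58.7, 64.3 and 60.4 on the WT arrays. Hoxa7 lay at the limit, with 48.5, 49.3 and 46.5 on the KO arrays and 52.1, 48.1 and 44.2 on the WT arrays. Their log2 differences were -0.10 (SE 0.07), -0.04 (SE 0.08) and 0.00041 (SE 0.07). Hoxa5, Hoxb8, Hoxc5 and Hoxd8 were below the limit on all 6 arrays. Hoxa6 exceeded it on KO 3 and WT 3, at 52.8 and 46.9, and Hoxb6 on KO 3, at 47.5.

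Of the 16 tail genes of groups 9 to 13, Hoxd9 and Hoxd11, regulators of limb and lumbosacral patterning, were above background. Hoxd9 measured 57.0, 44.7 and 41.7 on KO 1, KO 2 and KO 3, against 56.0, 51.7 and 39.1 on WT 1, WT 2 and WT 3. Like Hoxb5, it was above the limit on KO 1, WT 1 and WT 2 only, and so had to be higher there. Hoxd11 measured 55.5, 48.6 and 48.0 on the KO arrays, and 52.7, 47.5 and 56.8 on the WT arrays, and exceeded the limit on all 6. Hoxa9, Hoxa10, Hoxb9, Hoxc13 and Hoxd12 exceeded the limit on 1 or 2 arrays per probe at most, with highest values between 47.2 and 52.3. The remaining 9 genes, namely Hoxa11, Hoxa13, Hoxb13, Hoxc9, Hoxc10, Hoxc11, Hoxc12, Hoxd10 and Hoxd13, were below it on every array.

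Probes of 1 gene did not always match. Of the 12 genes with several probes, 5 had both a probe above background on at least 3 arrays and one that was not, among them Hoxa7, Hoxb7, Hoxc6 and Hoxc8. For these genes the call of being above background rests on a single probe.

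**Figure D2:**
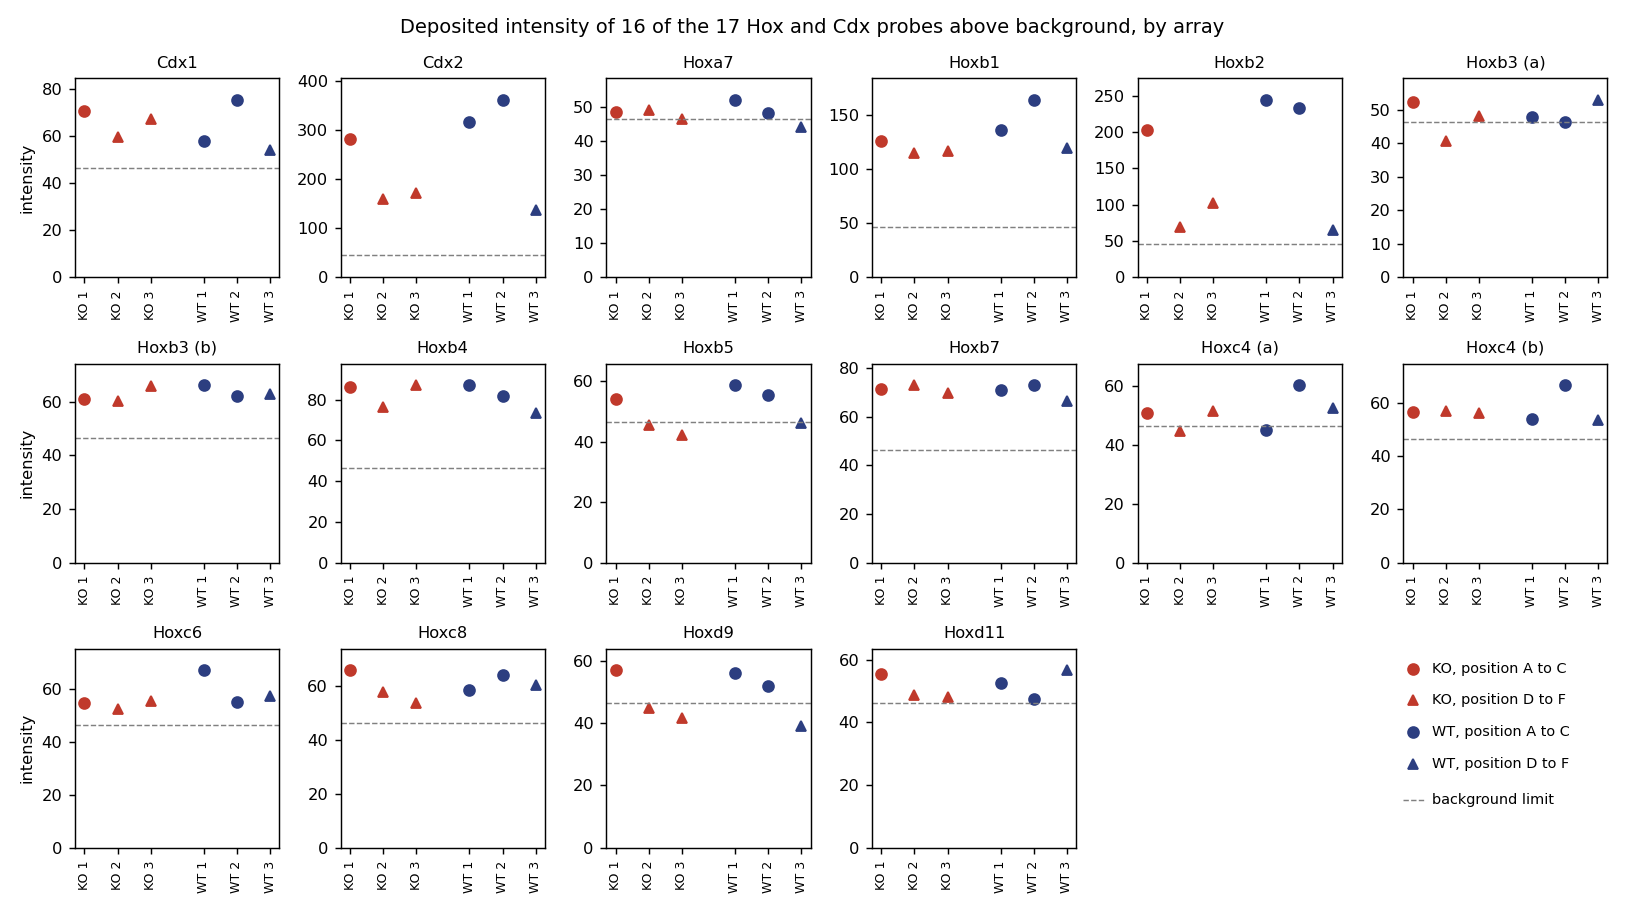
Deposited intensity (vertical axis, linear, from 0) on each array (horizontal axis, KO arrays left of WT arrays) for 16 of the 17 member probes above background, with circles for slide positions A to C, triangles for D to F, and a dashed line at the background limit. Cdx2 and Hoxb2 are high on KO 1, WT 1 and WT 2, at 203 or more, and low on the other arrays, at 172 or less; (a) and (b) are different probes of 1 gene.

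No member passed the test between the labels. In limma over the 22250 probes above background (two-sided, Benjamini-Hochberg adjustment), 0 of the 17 member probes passed an adjusted p of 0.05, and the background was 0% of all probes tested. At an unadjusted p under 0.05 there were 0 member probes, where 2.19% of all tested probes reached it, 1.24% of all being lower under the KO label. Of the 17, 13 had lower and 4 higher means under the KO label, with a median log2 difference of -0.04, against 0.0026 over all tested probes, of which 48.6% were lower. For 0 of the 17 did all KO arrays lie below all WT arrays, where the background was 3.29%, and for 0 did they lie above, where it was 3.65%.

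Without KO 1 and WT 3, the 2 arrays set apart from their labels, Cdx2 and Hoxb2 passed. Cdx2 then differed by -0.93 (SE 0.09) and Hoxb2 by -1.27 (SE 0.13) on the log2 scale, each with a limma adjusted p of 0.000137, lower on KO 2 and KO 3 than on WT 1 and WT 2. Beside these 2 of 17 member probes, 6.47% of all tested probes passed, 3.36% of all being lower under the KO label. Hoxb1 at -0.31 (SE 0.10, limma adjusted p = 0.0889) and Hoxb5 at -0.26 (SE 0.08, limma adjusted p = 0.105) did not pass. The arrays were left out because of their values, so these calls are not independent evidence of an effect of endoglin. The 4 arrays of this fit divide by slide position as they do by label, so the 2 cannot be told apart in it.

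**Figure D3:**
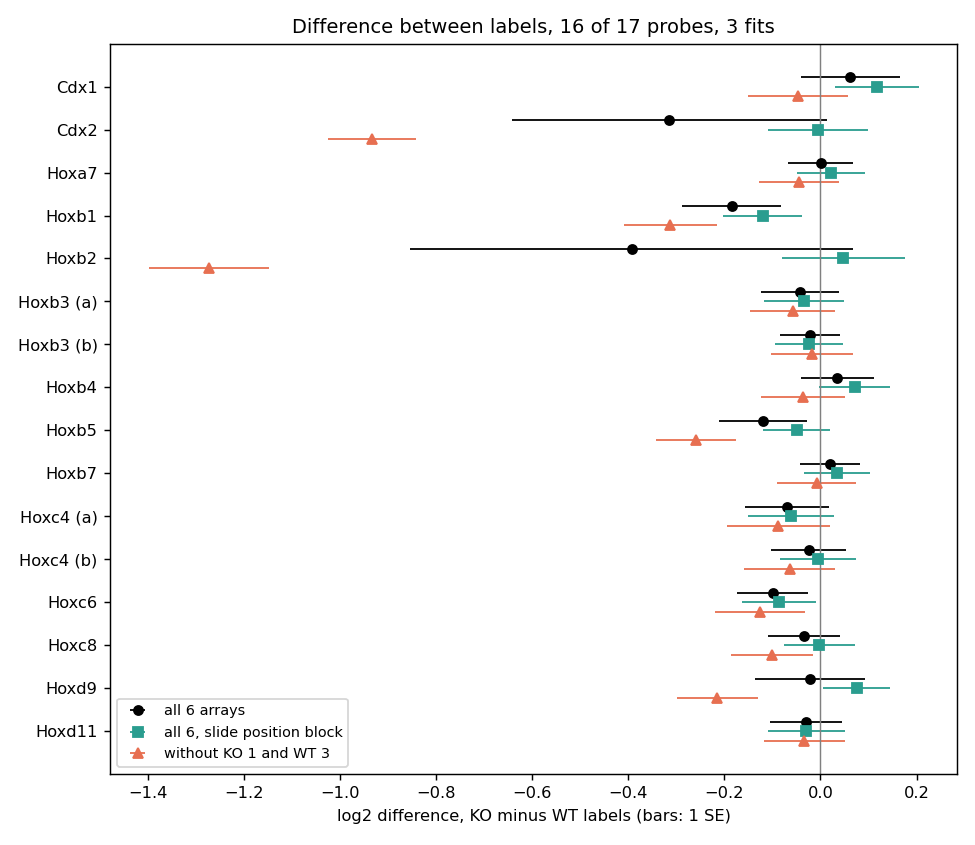
Log2 difference, KO minus WT (horizontal axis, bars of 1 SE), for 16 of the 17 member probes (vertical axis) with all 6 arrays, with slide position as a block, and without KO 1 and WT 3. Cdx2 and Hoxb2 lie at -0.31 and -0.39, at -0.0044 and 0.05, and at -0.93 and -1.27 in the 3 fits.

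The order of the arrays was shared by several members. On the arrays at positions A to C (KO 1, WT 1 and WT 2), 6 of the 17 probes, among them those of Cdx2, Hoxb1, Hoxb2, Hoxb5 and Hoxd9, were above all arrays at D to F (KO 2, KO 3 and WT 3), and 0 were below. Among all tested probes, 13.7% were above and 14.5% below. Hoxb5 and Hoxd9 had passed the filter through these 3 arrays alone, so they had to show this order. Of the 12 member probes above the limit on all 6 arrays, 4 were above and 0 below, where the background was 14.8% and 16.2%. The anterior genes Hoxb1 and Hoxb2 thus showed this order, while Hoxb3, Hoxb4, Hoxb7 and the Hoxc genes were not. Slide position and anything else that divides the arrays in this way cannot be told apart.

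Streak genes upstream of Cdx and Hox also followed this order of arrays. The posterior growth list holds Wnt and FGF ligands, their nuclear effectors and streak factors. It also holds the Wnt inhibitor Axin2 and the TGF-beta family ligands Bmp4 and Gdf11. Of its 19 genes, 17 were tested, and 0 passed the test between the labels. Under the KO label 7 were higher and 10 lower, with a median log2 difference of -0.11, against 0.0026 over all tested probes. At positions A to C 12 of the 17 were above all arrays at D to F, and 3 were below, beside the 13.7% and 14.5% of all tested probes. T (brachyury), the defining streak factor, measured 5612, 4316 and 4157 on KO 1, KO 2 and KO 3, against 5052, 5323 and 3591 on WT 1, WT 2 and WT 3. Sp5, a Wnt target, measured 4097, 3310 and 3488 on the KO arrays, against 4062, 4316 and 3391 on the WT arrays. Wnt5a, a ligand needed for axis elongation and named here because of its values, measured 324, 51.4 and 57.1 on the KO arrays, against 286, 255 and 55.4 on the WT arrays. Wnt8a, named for the same reason, ran the other way, with 350, 635 and 698 on the KO arrays and 348, 376 and 606 on the WT arrays.

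**Figure D4:**
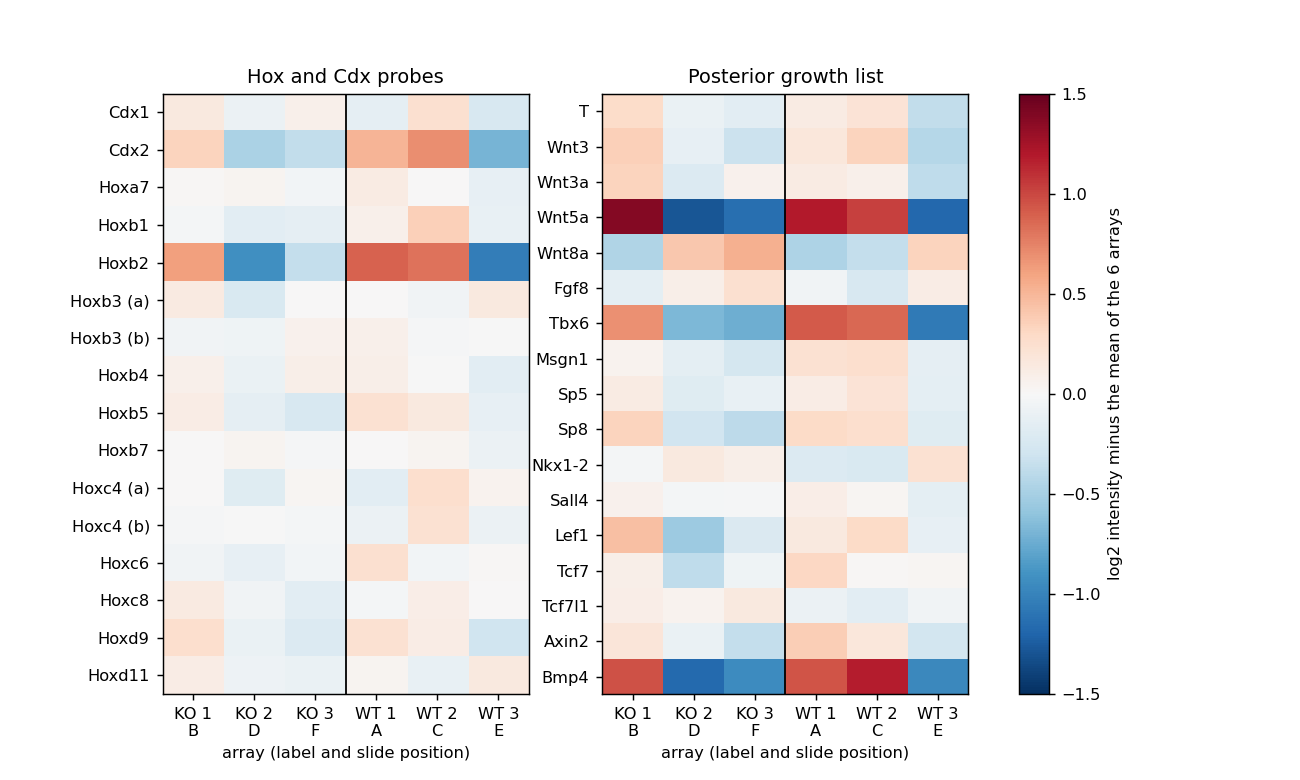
Log2 intensity minus the mean of the 6 arrays (colour) for 16 of the 17 member probes (left) and the 17 tested genes of the posterior growth list (right), with 1 column per array and its slide position letter. KO 1, WT 1 and WT 2 are red and KO 2, KO 3 and WT 3 blue for Cdx2 and Hoxb2 and likewise for Wnt5a, Tbx6 and Bmp4, while Wnt8a is the reverse.

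Most of the listed homeobox genes related to Hox were below background as well. Of 12 ParaHox, extended Hox and flanking genes, 4 were above background and tested (1 higher, 3 lower, 0 passed), beside 47.7% of all probes. Another 7 lay below the limit on all arrays, among them the ParaHox genes Gsx1, Gsx2 and Pdx1 and the Hoxd neighbour Evx2. Evx1, the neighbour of the Hoxa cluster and a streak gene, measured 2737, 1173 and 1183 on the KO arrays, against 2948, 3027 and 963 on the WT arrays. KO 1, WT 1 and WT 2 were again high. Gbx2 ran the other way, with 321, 401 and 402 on the KO arrays and 315, 345 and 391 on the WT arrays.

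Most partners of Hox proteins were above background on all arrays. All 11 TALE homeodomain genes (Pbx, Meis, Pknox and Tgif), which bind DNA with Hox proteins or compete for their sites, passed the filter. On all 6 arrays 9 were above the limit, beside 38.3% of all probes. Of the 11, 1 was higher and 10 lower under the KO label, 0 passed, and the median log2 difference was -0.07. Tgif1 measured 1299, 1407 and 1483 on the KO arrays and 1456, 1366 and 1612 on the WT arrays, and Pbx2 229, 225 and 235 against 223, 266 and 243. The labels overlapped for both. The 2 genes not above the limit on all arrays, Meis1 and Pknox2, are named after their values were seen. Meis1 exceeded it on KO 1, WT 2 and WT 3. Pknox2 measured 41.1, 42.9 and 43.0 on the KO arrays, against 49.7, 54.8 and 48.3 on the WT arrays, so it passed the filter through the WT arrays alone and its groups had to differ. Its unadjusted limma p was 0.0239 and its adjusted p 1.00.

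Retinoic acid is the best known inducer of anterior Hox genes. Of 18 genes of its synthesis, breakdown, receptors and binding proteins, 17 had a probe and 11 were tested (3 higher, 8 lower, 0 passed, median -0.04). Aldh1a2, the main synthesizing enzyme in the embryo, Rarb and Cyp26a1 are named here with their values known. Aldh1a2 exceeded the limit on WT 2 alone, at 46.7, and Rarb, a receptor and itself a retinoic acid target, on no array. Rxrb, a receptor subunit, measured 1254, 1627 and 1569 on the KO arrays and 1260, 1414 and 1533 on the WT arrays. Cyp26a1, which degrades retinoic acid, measured 258, 161 and 190 on the KO arrays, against 309, 384 and 150 on the WT arrays, the order of arrays seen for Cdx2. The list went both ways. Of the 11 tested genes, 3 were above and 2 below on the arrays at A to C, beside the 13.7% and 14.5% of all tested probes.

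Most of the listed Polycomb and trithorax genes, which keep Hox clusters off or on, were above background. Of 20, 16 were tested (11 higher, 5 lower, 0 passed, median 0.02). All 16 were above the limit on all 6 arrays, beside 38.3% of all probes. Of the genes not tested, 1 was above the limit on no array. Phc1, a Polycomb subunit abundant in ES cells, measured 4697, 6166 and 6055 on the KO arrays, against 4330, 4469 and 6525 on the WT arrays, with KO 2, KO 3 and WT 3 high. Of the 16 tested genes, 2 were above and 3 below on the arrays at A to C, beside the 13.7% and 14.5% of all tested probes. Phc2 measured 1836, 1695 and 1739 on the KO arrays and 1868, 2056 and 1749 on the WT arrays.

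Markers of other cells that express Hox or Cdx genes were set beside these values. Of 13 trophoblast genes, which include Cdx2, 7 were above the limit on all 6 arrays, beside 38.3% of all probes. Elf5, Ascl2 and Tpbpa were above it on none. The summed intensity of the 13 was 3923 to 4282 on the KO arrays and 3683 to 4539 on the WT arrays. It was 4235 to 4539 at positions A to C against 3683 to 3946 at D to F. Without Cdx2, the other 12 summed to 3874 to 4223 at A to C and 3546 to 3774 at D to F. The 10 tested genes divided both ways, with 5 above and 3 below on the arrays at A to C, beside the 13.7% and 14.5% of all tested probes. The 5 include Cdx2 itself. They also include Hand1, which passed the filter through KO 1, WT 1 and WT 2 alone and so had to show this order. Gata3 (172 to 186 at A to C, 44.1 to 57.7 at D to F) and Krt7 (144 to 164 at A to C, 287 to 314 at D to F), named after their values were seen, ran opposite ways. Eomes, also a streak gene, measured 1146 to 1382 on the KO arrays and 1187 to 1319 on the WT arrays, and Krt8, a simple keratin, 985 to 1276 and 1018 to 1488. By position, Krt8 was 1257 to 1488 at A to C and 985 to 1196 at D to F, while Eomes overlapped. Bright genes such as these weigh most in the sums. Of 11 fibroblast genes, checked because feeder fibroblasts express many Hox genes, 4 were above the limit on all arrays, beside 38.3% of all probes. Col1a1, Col1a2, Col3a1, Lum, Postn and S100a4 were above it on none. The sum over the 11 was 755 to 911 on the KO arrays and 756 to 943 on the WT arrays, with 911 to 943 at positions A to C and 755 to 757 at D to F. Fbln2, a matrix gene named because of its values, separated the positions, with 228, 63.6 and 60.9 on the KO arrays, against 227, 203 and 58.6 on the WT arrays. Without it, the sum was 684 to 716 at A to C and 692 to 698 at D to F, which overlap. Among the 5 tested fibroblast genes, Fbln2 was above and Thy1 below on all arrays at A to C. By label, Thy1 measured 161 to 198 on the KO arrays and 172 to 185 on the WT arrays, and was 161 to 177 at A to C and 185 to 198 at D to F. Acta2 measured 164 to 183 on the KO arrays and 192 to 212 on the WT arrays, with no overlap between the labels. In limma its unadjusted p was 0.0169 and its adjusted p 1.00. Dcn, named after its values were seen, went the other way, at 46.9 to 49.3 on the KO arrays and 39.9 to 45.3 on the WT arrays. It passed the filter through the KO arrays alone, so its groups had to differ. Among all tested probes, 3.29% lay lower under the KO label without overlap and 3.65% higher.

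Of 7 intestinal genes, 2, Vil1 and Lgals4, were above the limit on all arrays, beside 38.3% of all probes. Cdh17, Fabp2, Gpa33 and Alpi were above it on none. The sum over the 7 was 314 to 333 on the KO arrays and 303 to 313 on the WT arrays. It was 303 to 315 at positions A to C and 304 to 333 at D to F, which overlap. The genes below the limit add background to this sum, and its difference between labels was not tested. Of 7 hindbrain and spinal cord genes, Gbx2 and Pax6 were above the limit on all arrays, beside 38.3% of all probes. Another 3, among them Sox1 and Olig2, were above it on none. The sum over the 7 was 585 to 645 on the KO arrays and 581 to 632 on the WT arrays. It was 581 to 606 at positions A to C and 632 to 645 at D to F. Without Gbx2, the other 6 ran the other way, with 261 to 266 at A to C and 241 to 243 at D to F. All 6 pluripotency genes were above the limit on all arrays, beside 38.3% of all probes. Their sum was 6621 to 9464 on the KO arrays and 6473 to 9348 on the WT arrays. It was 6473 to 6743 at positions A to C and 9203 to 9464 at D to F. Of the 6, 5 were below on all arrays at A to C, where Cdx2 and Hoxb2 were high, and 0 above, beside the 14.5% and 13.7% of all tested probes. Pou5f1 measured 3005, 4687 and 4352 on the KO arrays, against 2938, 3373 and 4423 on the WT arrays, and Nanog 1913, 2107 and 2208 against 1977, 1754 and 2418. The part of these cell types in the Hox and Cdx values was not tested.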

How the data were processed

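Total RNA (Trizol, then column purification and DNase) was copied into biotin-labelled cRNA for the arrays, per the labels' protocols. The authors deposited linear intensities, 1 for each probe on each array, and no source used here gives their normalization or software. The columns share 1 highest value (32123) and a median of 45.1, as after quantile normalization. A second deposited table gave the gene symbols; its 12 value columns are only numbered, could not be tied to samples and were not used. Other genes were named from the platform annotation (1 symbol for 29976 probes, several for 10, none for 16646) or by matching the symbol column to RefSeq, which named 37360 probes in all.

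The background of each array was modelled as a normal distribution at its most frequent intensity (38.8 to 38.9 by array), with the SD of the values below it. Probes above its 95th percentile on at least 3 arrays (22250) were kept. Intensities were corrected with normexp (offset 50), which shrinks differences of dim probes, taken to log2 and compared in limma 3.58.1 (R 4.3.3; lmFit, eBayes, two-sided, Benjamini-Hochberg over all kept probes, threshold 0.05) over all 6 arrays without covariates. For list genes with several probes, the brightest on average was used. The steps were tested on simulated data. Members and lists were chosen with earlier results of these data known. The naming rule took every member above the limit on any array, and of each other list the 2 with the highest mean intensity and any that passed. Some items that it names are not reported here. Precision is limited by having 3 arrays under each label. Alternatives covered background correction, normalization, filter, background percentile, probe choice, symbol source, variance model, array weights, blocks and omitted arrays.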

Additional observations from a re-analysis of the deposited data

How the results depend on the processing

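The count of 0 member probes and 0 of all probes called between the labels in limma was the same with no background correction, the background peak subtracted (offset 16), a further quantile step, cyclic loess, no filter, the stricter filter, 1 probe per symbol, a mean-variance trend with robust moderation, weighted arrays, the replicate block, the slide position block and each array left out in turn (0 to 0). At an unadjusted p under 0.05 the main count was 0 member probes and 487 of all. Without KO 1 and WT 3 together, 2 member probes and 1439 of all probes were called; the cause was not tested. The replicate block gave 0 member probes and 0 of all called. The correlation of deviations between same-numbered arrays was 0.58, -0.26 and 0.50, so the numbers were not taken to pair the arrays.

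The number of member probes above background was 17, and 15 with the 99th percentile, 16 with platform symbols, 12 when all 6 arrays were required, 30 when 1 array sufficed and 15 to 17 with 1 array left out.

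Signs changed for small differences and for Hoxb2, which was 0.048 with the slide position block. Hoxd9 was 0.076 with that block, and Hoxa7 -0.013 with array weights. Without KO 1 and WT 3, Cdx1 was -0.047, Hoxa7 -0.044, Hoxb4 -0.036 and Hoxb7 -0.0073. With each array left out, the log2 differences ranged from -0.0086 to 0.17 for Cdx1, -0.040 to 0.041 for Hoxa7, -0.097 to 0.024 for the dimmer Hoxb3 probe, -0.015 to 0.082 for Hoxb4, -0.0083 to 0.042 for Hoxb7, -0.14 to 0.0020 and -0.063 to 0.051 for the Hoxc4 probes, -0.094 to 0.013 for Hoxc8, -0.12 to 0.050 for Hoxd9 and -0.077 to 0.012 for Hoxd11. None of these passed the test, and the cause was not tested. Cdx2 ranged from -0.71 without WT 3 to -0.074 without WT 2, and Hoxb2 from -0.92 without WT 3 to -0.11 without KO 2 or WT 1. Hoxb1 ranged from -0.28 without WT 3 to -0.079 without WT 2, Hoxb5 from -0.19 without WT 3 to -0.067 without KO 3, and Hoxc6 from -0.14 without WT 2 to -0.037 without WT 1, each of the same sign throughout. Dim signal limits Hoxa7, Hoxb5, Hoxd9, Hoxd11 and the dimmer Hoxb3 and Hoxc4 probes.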

Other observations

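Rhox5 and Rhox9, homeobox genes outside the clusters, divided the arrays in the opposite direction to Cdx2. Rhox5, an X-linked homeobox gene of reproductive tissues and early embryos, measured 282, 861 and 941 on KO 1, KO 2 and KO 3, against 310, 314 and 910 on WT 1, WT 2 and WT 3. KO 2, KO 3 and WT 3, where Cdx2 and Hoxb2 were low, were the high arrays, and the highest was 3.33 times the lowest. Both Rhox genes given here were picked because of their values. Rhox9, of the same X-linked cluster, measured 48.3, 84.5 and 89.5 on the KO arrays, against 63.9, 59.2 and 75.6 on the WT arrays, with the same 3 arrays high. Of 10 Rhox probes, 5 were above the background limit on at least 3 arrays. The other 3 of them, for Rhox7, Rhox8 and Rhox10, overlapped between slide positions A to C and D to F.

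The platform annotation names 2 further probes, for Hoxa3 and Hoxa10, that the member rule does not take. Both lay below the limit on all 6 arrays, at 38.2 to 43.6 and 36.2 to 44.3. Of 2 probes of the antisense RNA Hoxd3os1, 1 exceeded the limit on KO 3 and WT 1, at 50.5 and 54.7.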
